A study of Mus musculus with 4 samples.

Results

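The genes described here encode the nuclear-encoded subunits of the mitochondrial respiratory chain and of the ATP synthase. They were chosen by gene symbol among the probe sets that name a single gene: the Nduf a, b, c, s and v subunits, Sdha to Sdhd, the Uqcr genes with Cyc1, the subunits of cytochrome c oxidase and the Atp5 genes, with assembly factors left out. In all, 80 of 17097 genes met this rule, through 136 of 45037 probe sets, and each gene was read from its probe set of the highest mean over the 4 arrays. Complex I contributed 32 genes, complex II 4, complex III 8, complex IV 19 and complex V 17. Ndufa4 and Ndufa4l2 were placed in complex IV, where the Ndufa4 protein is a subunit. Of the 80 genes, 79 were protein coding and Ndufs5-ps was annotated as a pseudogene. Cox7b is not named by the annotation and was not analysed here.

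The arrays measured total RNA from the shaved back skin of male C3H mice. The mice were 8 weeks old before treatment began, and older when the skin was collected. Control 1 and Control 2 had received Milli-Q water as the vehicle, and TCQA 1 and TCQA 2 had received 1% TCQA, a quinic acid that carries caffeoyl groups, each applied daily for 30 days. The labels date the tissue to day 30 and the paper to day 37, and the paper states 5 mice per group. Whether each array stands for 1 mouse or for a pool is not stated in the sources used here, so the spread behind a p-value is that between arrays and may be technical. Where 4 signals follow each other below, they are in the order Control 1, Control 2, TCQA 1, TCQA 2. The comparison addresses which transcripts differ between TCQA-treated and vehicle-treated skin.

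The respiratory chain passes electrons from NADH (complex I) and succinate (complex II) through ubiquinone, complex III and cytochrome c to oxygen at complex IV, and complexes I, III and IV pump protons across the inner membrane. Complex V, the ATP synthase, lets the protons back and makes ATP. Most subunits are encoded in the nucleus and are produced at high levels in heart, skeletal muscle and brown fat, which are rich in mitochondria. Several complex IV subunits exist as a ubiquitous isoform and another made mainly in striated muscle, testis or lung.

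Control 1 stood apart from the other arrays before any comparison of the groups. Over all 45037 probe sets its Pearson correlation with the other arrays was 0.412 to 0.413, and the other arrays correlated with each other at 0.884 to 0.956. Over the 80 genes alone, Control 1 correlated at 0.0148 to 0.0523 with the others, which correlated at 0.869 to 0.954. These are descriptions over genes that share the arrays. Markers of several cell types were also highest on Control 1, as described below. The differences between the groups are therefore given with it and, as the TCQA mean minus Control 2, without it.

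The respiratory chain genes were bright on Control 1 and dim on the other 3 arrays. Their median log2 signal was 7.85 on Control 1 but 2.83 on Control 2, and it was 2.98 and 3.04 on the TCQA arrays. Over all 17097 genes the medians were 2.75, 2.88, 2.87 and 2.77. Control 1 was the highest of the 4 arrays in 73 of the 80 genes, or 91.3%, against 33.9% of all genes. It was the lowest in the other 7, and in 9160 of all 17097 genes. The difference between the control arrays had a median of 5.01 on the log2 scale and ran from -1.13 to 7.38, while its median over all genes was -0.29. A difference of at least 4 between the controls was seen in 54 of the 80 genes, or 67.5%, and in 3.79% of all genes. In bulk tissue, fewer cells of a type and less RNA per cell cannot be told apart.

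**Figure D1:**
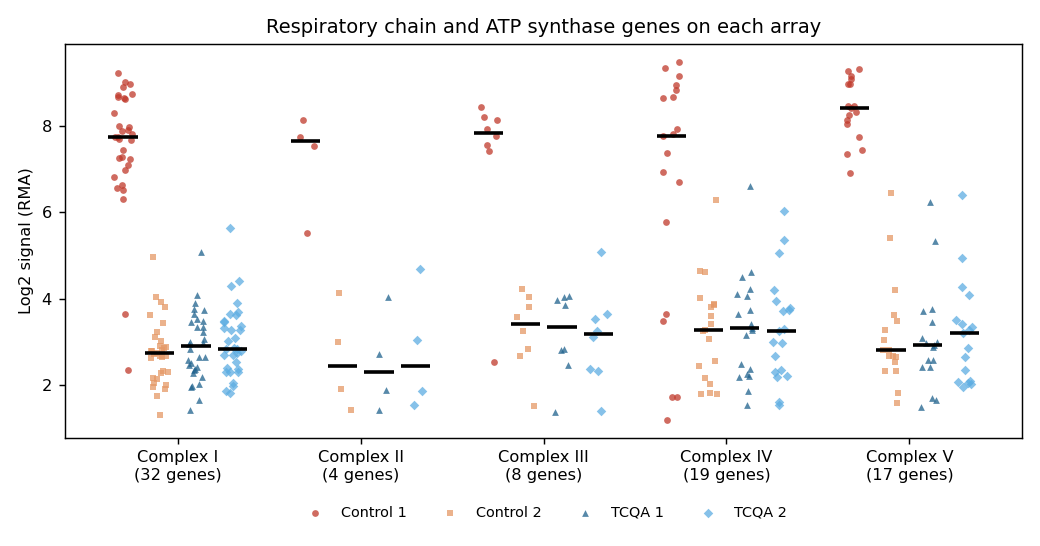
Log2 signal of each of the 80 genes on each array, grouped by complex; a symbol is a gene and a black bar the median of its complex on that array. The medians on Control 1 run from 7.65 in complex II to 8.42 in complex V, and on the other arrays from 2.32 to 3.42.

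No respiratory chain gene passed the test between the groups. With limma, 0 of the 80 genes had an adjusted p under 0.05 (adjusted p = 0.923 to 0.955, Benjamini-Hochberg over all probe sets), against 0 of 45037 probe sets, or 0%. At an unadjusted p under 0.05, 0 of the 80 genes and 141 of all probe sets remained, and the smallest unadjusted p of a member in limma was 0.149. At 2-fold with an unadjusted limma p of at most 0.05, 0 of the 80 genes were lower and 0 were higher. The shares over all probe sets were 0.122% lower and 0.135% higher. This rule is not that of the paper's gene tables. Those call a change of at least 2-fold significant and give p-values from an analysis of variance, not all of them at most 0.05. An unmoderated two-group test also gave 0 members at an adjusted p under 0.05, and 0 members and 244 of all genes at an unadjusted p under 0.05. A p that misses the threshold does not show that the levels were alike.

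The mean of TCQA minus control was nevertheless negative in 73 of the 80 genes, with a median of -2.36 and a range from -3.69 to 0.84. The median over all genes was 0.08. The standard errors were nearly as large as the differences, with a median of 1.70 over the 80 genes, since the control arrays differed by more than the groups did. When the groups were compared by array, both TCQA arrays lay below both controls in 20 of the 80 genes, or 25%, against 13.6% of all genes. Both TCQA arrays lay above both controls in 2 of the 80, Cox4i2 and Cox6b2, or 2.5%, against 16% of all genes. In the remaining genes the groups overlapped.

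Without Control 1 the difference between the groups was small for every complex. On the other 3 arrays the members' medians were 2.83, 2.98 and 3.04, against 2.88, 2.87 and 2.77 over all genes. Most members were thus dim there, and small differences between dim signals say little about an effect of TCQA. The TCQA mean minus Control 2 had a median of 0.05 over the 80 genes and ran from -0.58 to 0.83, with 36 negative and 44 positive differences, and 0 of the 80 reached a difference of 1. The median over all genes was -0.03. Both TCQA arrays lay below Control 2 in 21 of the 80 genes, against 34.9% of all genes, and above it in 26, against 26.3%. With limma on these 3 arrays, where the spread comes from the TCQA arrays alone, 0 of the 80 genes and 0% of all genes passed an adjusted p of 0.05, and 0 of the 80 genes and 205 of all genes had an unadjusted p under 0.05. Without Control 2 instead, 71 of the 80 genes passed an adjusted p of 0.05 in limma, all 71 lower with TCQA, against 20.3% of all genes lower. The 9 genes that did not were Cox4i2, Cox6b2, Cox7b2, Cox8a, Cox8c, Ndufa4l2, Ndufa11, Ndufs8 and Uqcrq. The call therefore rests on which control array is kept.

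**Figure D2:**
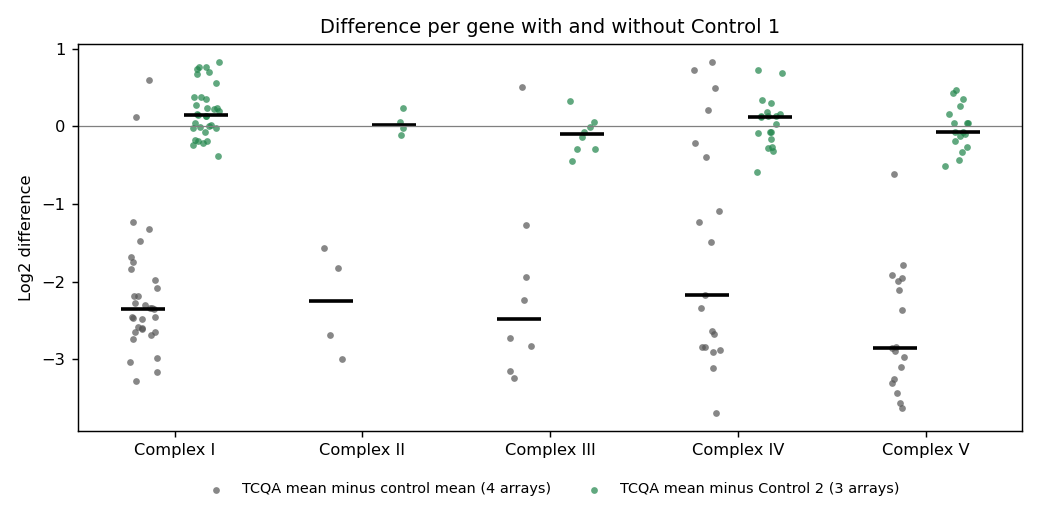
Log2 difference of each gene by complex, as the TCQA mean minus the mean of both controls (grey) and as the TCQA mean minus Control 2 (green), with black bars at the medians. Grey medians run from -2.85 in complex V to -2.17 in complex IV, and green medians from -0.10 in complex III to 0.15 in complex I.

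Complex I, the NADH dehydrogenase, had a median difference of -2.35 over its 32 genes, of which 30 were negative, and a median of 0.15 without Control 1. On the arrays its median signal was 7.74, 2.74, 2.90 and 2.85. The 6 core subunits that bind the flavin and most iron-sulfur clusters had a median difference of -1.96, and the 26 accessory subunits one of -2.35. Ndufv2, an iron-sulfur core subunit, had the most negative difference of the complex, with log2 signals of 8.91, 2.34, 2.29 and 2.40. Control 1 was high, the other 3 arrays lay within 0.10 of each other, and the groups overlapped. The difference of Ndufv2 was -3.28 with an SE of 2.21 (limma adjusted p = 0.923), the controls themselves differed by 6.57, and without Control 1 the difference was -0.00029.

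Ndufa11, an accessory subunit of the membrane arm, had the most positive difference of complex I. Its log2 signals were 2.35 and 3.44 on Control 1 and Control 2 and 3.65 and 3.33 on TCQA 1 and TCQA 2. Here Control 1 was the lowest array, the groups overlapped, and the difference was 0.59 with an SE of 0.49, or 0.050 without Control 1. Ndufs8, an iron-sulfur core subunit, was the only other complex I gene that was not highest on Control 1, at 3.65 there and 3.90 to 3.92 elsewhere, with a difference of 0.12, or -0.019 without Control 1. Ndufv3, a small flavoprotein-fraction subunit, and Ndufs1, the largest core subunit, lay above the 90th percentile of every other array as well, with 4.97 to 5.63 and 4.04 to 4.29 there, and reached 9.23 and 6.98 on Control 1. Both TCQA arrays were below both controls in 6 of the 32 genes, or 18.8% against 13.6% of all genes: Ndufa1, Ndufa8, Ndufb3, Ndufb9, Ndufc2 and Ndufs4.

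Complex II, succinate dehydrogenase, is also an enzyme of the citric acid cycle, and all its 4 genes had a negative difference, with a median of -2.25 and a median of 0.02 without Control 1. Sdhc, a membrane anchor, was at 7.54 on Control 1 and at 1.42, 1.42 and 1.55 on the other arrays. Its difference was -3.00 with an SE of 2.07, the most negative of the complex, or 0.062 without Control 1, and the groups overlapped. Sdha, the flavoprotein that oxidises succinate, was at 7.75, 4.14, 4.05 and 4.69, so Control 1 was high and TCQA 2 was the next array. The difference of Sdha was -1.57 with an SE of 1.27, the smallest of the complex, or 0.24 without Control 1. Sdhb, the iron-sulfur subunit, had a difference of -2.68, and Sdhd, the other anchor, one of -1.83 with both TCQA arrays below both controls. Without Control 1 these were -0.11 and -0.023.

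Complex III, which passes electrons from ubiquinol to cytochrome c, had a median difference of -2.48 over 8 genes and of -0.10 without Control 1. Uqcr11, a small subunit, had signals of 8.43 on Control 1 and 2.85 on Control 2, and of 2.47 and 2.33 on the TCQA arrays. The TCQA arrays were the lowest ones, so the groups did not overlap, with a difference of -3.24 (SE 1.89), of which -0.45 was left without Control 1. For Uqcrb, which sits by the ubiquinone site, the signals were 7.57, 1.53, 1.38 and 1.42. This was the largest difference between the controls in the complex, 6.04, and the TCQA arrays again lay below both, with a difference of -3.15 (SE 2.04), or -0.13 without Control 1. The electron-carrying and core subunits Cyc1, Uqcrfs1, Uqcrc1 and Uqcrc2 had a median difference of -2.48 and the small subunits one of -2.54. Uqcrq, a small subunit, was the exception, at 2.54 on Control 1 and 3.57, 3.87 and 3.27 on the others, with a difference of 0.51 (SE 0.51), or -0.0045 without Control 1.

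Complex V, the ATP synthase, had the largest medians of the 5 complexes, with a difference of -2.85 between the groups and of 5.78 between the controls, and its median without Control 1 was -0.07. All 17 genes had a negative difference and all were highest on Control 1. The subunits of the catalytic F1 head (Atp5a1, Atp5b, Atp5c1, Atp5d, Atp5e) had a median difference of -2.85, the 3 genes for the rotating c-ring (Atp5g1, Atp5g2, Atp5g3) one of -2.96, and the 9 subunits of the stalk and membrane part one of -2.85. Atp5l, subunit g of the membrane part, had the most negative difference, from signals of 9.26 and 2.67 on the controls and 2.58 and 2.10 on the TCQA arrays. The TCQA arrays lay below both controls, and the difference was -3.63 with an SE of 2.22, of which -0.34 was left without Control 1.

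Atp5j2, subunit f of the membrane part, had the largest difference between the controls of all 80 genes, 7.38. Its signals were 8.98, 1.59, 1.67 and 2.05. The groups overlapped, since Control 2 was the lowest array, and the difference was -3.43 with an SE of 2.49, or 0.27 without Control 1. Atp5mpl, a small proteolipid of the complex, stood at the other end. It was measured at 7.43 and 6.44 on the controls and at 6.24 and 6.41 on the TCQA arrays, so it was bright on all 4 arrays. The TCQA arrays lay just below Control 2, with a difference of -0.62 (SE 0.46), or -0.12 without Control 1. Atp5mpl and the complex IV gene Cox5b were the 2 genes at a log2 signal of 6 or more on each of the other 3 arrays, against 70 of the 80 genes on Control 1. Of all 17097 genes, 1279 reached that level on Control 1, and 89, 94 and 86 did on Control 2, TCQA 1 and TCQA 2.

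Complex IV, cytochrome c oxidase, had the widest range of differences, from -3.69 to 0.84, with 15 negative and 4 positive over 19 genes. Its median difference was -2.17, and 0.13 without Control 1. Cox6c, a small subunit, had the most negative difference of all 80 genes, with signals of 9.48 and 3.27 on the controls and of 3.17 and 2.20 on the TCQA arrays. The groups did not overlap, TCQA 2 was the lowest array, and the difference was -3.69 (SE 2.12, limma adjusted p = 0.923). Without Control 1 it was -0.58, the most negative of the 80 genes in that comparison too. Cox5a and Cox5b, which share a name but not a sequence family, had differences of -2.90 and -1.49, or -0.071 and 0.034 without Control 1.

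The tissue isoforms of complex IV split in how far Control 1 lay from the other arrays. The 6 ubiquitous isoforms had a median difference between the controls of 4.82 and the 3 isoforms of heart and skeletal muscle one of 5.94, while the 5 isoforms known from testis, lung or hypoxic cells had one of -0.59. For TCQA minus control the medians were -2.48, -2.84 and 0.49 in the same order, and 0.15, 0.13 and 0.13 without Control 1. These are medians over few genes, and no test was made between them.

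The muscle isoforms were bright on Control 1 and dimmer on the other arrays. Cox6a2 was at 7.93 and 3.89 on the controls and 3.74 and 3.73 on the TCQA arrays, with a difference of -2.17 (SE 1.38) and no overlap between the groups. Cox7a1 was at 7.76, 1.82, 1.55 and 2.36, with a difference of -2.84 (SE 2.02), and the groups overlapped. Cox8b was at 8.66, 2.16, 2.39 and 2.21, with a difference of -3.11 (SE 2.19), the largest difference between the controls in complex IV (6.50) and overlap between the groups. Without Control 1 the differences of these genes were -0.16, 0.13 and 0.14.

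Their ubiquitous partners differed in how much they shared this pattern. Cox6a1 was at 6.70 and 3.08 on the controls and 3.66 and 3.95 on the TCQA arrays, with a difference of -1.08 (SE 1.25). Both TCQA arrays thus lay between the controls, and without Control 1 the difference was 0.73. The other probe set of Cox6a1 was at 8.53, 1.59, 1.86 and 1.86, with a difference of -3.20 (SE 2.34), or 0.27 without Control 1, so the 2 probe sets of this gene differed in how far Control 1 lay above the rest. Cox7a2 was at 8.64, 4.01, 4.08 and 3.31, with a difference of -2.63 (SE 1.59), or -0.32 without Control 1. Cox8a was at 5.77 and 4.65 on the controls and 4.62 and 5.37 on the TCQA arrays, so its Control 1 lay only 1.12 above Control 2, against 6.50 for Cox8b. The difference of Cox8a between the groups was -0.22 (SE 0.55), or 0.34 without Control 1. In Cox4i1, Cox6b1 and Ndufa4, Control 1 was again the high array and the groups overlapped. The signals of Cox4i1 were 8.83, 3.81, 4.22 and 3.76 (difference -2.33, SE 1.71), those of Cox6b1 were 9.16, 3.61, 3.28 and 3.80 (difference -2.84, SE 1.89), and those of Ndufa4 were 7.81, 1.79, 2.22 and 1.62 (difference -2.88, SE 2.04). Without Control 1 the differences were 0.18, -0.066 and 0.13.

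The testis, lung and hypoxia isoforms were dim on Control 1. Cox4i2, the lung and hypoxia isoform, was at 1.73 and 2.45 on the controls and 2.49 and 2.67 on the TCQA arrays, with a difference of 0.49 (SE 0.40), or 0.13 without Control 1. Cox6b2, a testis isoform, was at 1.74 and 2.04 on the controls and 2.20 and 3.25 on the TCQA arrays, with a difference of 0.84 (SE 0.48), the most positive of the 80 genes, or 0.69 without Control 1. In both genes the TCQA arrays lay above both controls, and neither passed the test (limma adjusted p = 0.923 for each). Cox8c, a testis isoform, was at 3.50, 4.62, 4.51 and 5.06, with a difference of 0.73 (SE 0.52), or 0.16 without Control 1. Cox7b2, another testis isoform, stayed at 1.20 to 1.88 on all arrays, with a difference of 0.22 (SE 0.39), or -0.078 without Control 1. In both, Control 1 was the lowest array and the groups overlapped. Ndufa4l2, a paralog of Ndufa4 induced by hypoxia, was at 3.66, 3.42, 3.32 and 2.97, and it was the one gene of this group that was highest on Control 1. Its groups did not overlap, with a difference of -0.39 (SE 0.35), or -0.28 without Control 1.

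**Figure D3:**
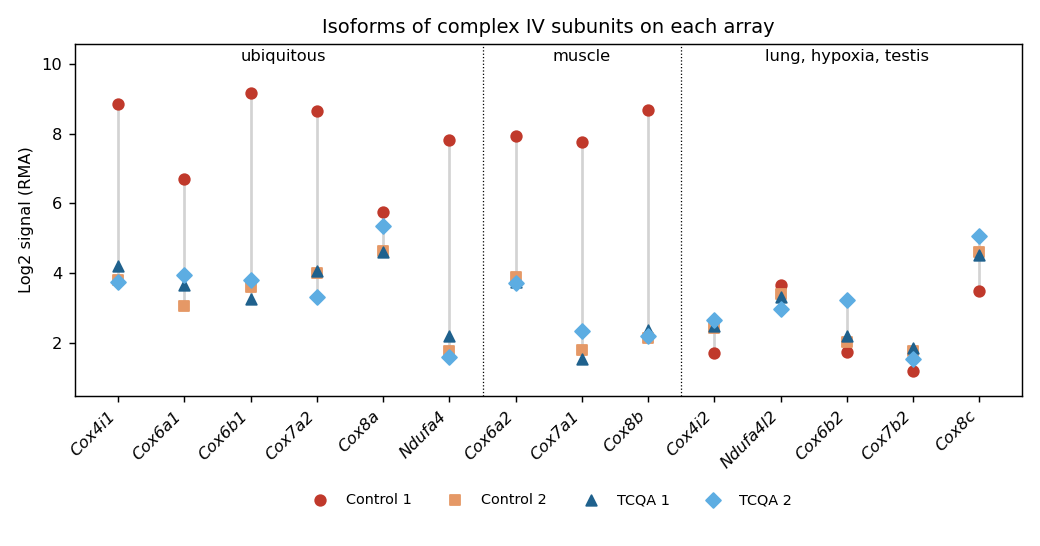
Log2 signal of the 14 complex IV isoforms on each array, ordered by the tissue in which an isoform is mainly made; a grey line joins the lowest and highest array of a gene. Control 1 lies at 7.76 to 8.66 for the muscle isoforms and at 1.20 to 3.66 for the lung, hypoxia and testis isoforms.

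The promoters of these isoforms are shown because isoforms of the same subunit differed in how they were measured on Control 1. RefSeq sequences of assembly GRCm38.p6 matched 63 of the 80 genes through 68 promoters, and the 250 bases before the annotated start were read, 5′ to 3′ on the gene's strand. In Cox6a1 (chr5:115348959-115349208, minus strand) the capitals mark matches to CGCANGCG, the core of the site of NRF1, a factor known for driving respiratory chain genes. In the others the capitals mark CG dinucleotides: Cox7a2 at chr9:79759854-79760103 (minus), Cox7a1 at chr7:30183921-30184170 (plus), Cox8a at chr19:7217617-7217866 (minus), Cox8b at chr7:140900447-140900696 (minus) and Cox6b2 at chr7:4753095-4753344 (minus).
Cox6a1: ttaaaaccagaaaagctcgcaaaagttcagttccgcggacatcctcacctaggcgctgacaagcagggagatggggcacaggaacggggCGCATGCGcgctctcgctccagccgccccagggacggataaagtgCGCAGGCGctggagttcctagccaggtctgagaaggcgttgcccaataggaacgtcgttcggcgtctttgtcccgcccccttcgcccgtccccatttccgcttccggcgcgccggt
Cox7a2: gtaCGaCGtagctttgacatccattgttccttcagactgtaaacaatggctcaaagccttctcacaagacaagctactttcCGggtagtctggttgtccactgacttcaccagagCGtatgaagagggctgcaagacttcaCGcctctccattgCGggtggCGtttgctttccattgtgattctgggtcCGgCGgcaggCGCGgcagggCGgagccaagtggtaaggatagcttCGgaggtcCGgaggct
Cox7a1: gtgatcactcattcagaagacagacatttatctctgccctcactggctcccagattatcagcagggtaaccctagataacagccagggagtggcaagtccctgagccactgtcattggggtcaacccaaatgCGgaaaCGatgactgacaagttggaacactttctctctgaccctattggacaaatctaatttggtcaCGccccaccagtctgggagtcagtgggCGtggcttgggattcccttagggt
Cox8a: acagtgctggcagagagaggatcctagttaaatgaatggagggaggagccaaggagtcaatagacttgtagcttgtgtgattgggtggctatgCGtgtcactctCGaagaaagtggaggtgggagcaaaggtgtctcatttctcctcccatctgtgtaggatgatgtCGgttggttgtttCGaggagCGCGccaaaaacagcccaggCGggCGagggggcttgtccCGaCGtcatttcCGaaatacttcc
Cox8b: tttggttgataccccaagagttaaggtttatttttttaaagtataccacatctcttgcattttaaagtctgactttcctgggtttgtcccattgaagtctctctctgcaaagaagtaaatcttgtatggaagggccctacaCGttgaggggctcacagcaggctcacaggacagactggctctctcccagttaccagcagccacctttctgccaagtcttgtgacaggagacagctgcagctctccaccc
Cox6b2: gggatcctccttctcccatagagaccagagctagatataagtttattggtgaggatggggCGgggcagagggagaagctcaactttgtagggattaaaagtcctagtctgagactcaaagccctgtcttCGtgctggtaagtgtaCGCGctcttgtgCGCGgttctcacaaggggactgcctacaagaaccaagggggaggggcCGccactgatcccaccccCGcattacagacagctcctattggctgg

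Among these promoters, CG dinucleotides numbered 26 in Cox6a1, 14 in Cox7a2 and 11 in Cox8a, the ubiquitous isoforms. The muscle isoforms held 4 in Cox7a1 and 1 in Cox8b, and the testis isoform Cox6b2 held 8. The median was 14 over the members' promoters and 6 over all 32851 promoters. On either strand, CGCANGCG was found in 19 of the 68 promoters, or 27.9%, against 6.76% of all promoters of this length. The ETS-type motif CCGGAAG was found in 14.7% against 6.91%, and the letters CAGCTG, an E-box bound by myogenic factors, in 7.35% against 13%. The single CAGCTG shown here is in Cox8b, near the start. A match is a description of these letters, not evidence that a factor binds there. Each match to CGCANGCG itself holds CG dinucleotides.

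Genes with several probe sets allowed a second reading of the pattern. Of the 136 probe sets of the 80 genes, 117 were highest on Control 1, or 86.0%, against 28.0% of all probe sets. The 136 include the 80 probe sets already used above. Of the 56 not used, 44 were highest on Control 1, or 78.6%. Over all 136, Control 1 was highest in 54 of the 73 probe sets with the plain suffix. It was also highest in each of the 35 with the suffix a, the 12 with s and the 16 with x, whose probes can also match other transcripts. Of 38 genes with more than 1 probe set, 27 had all of them highest on Control 1, 11 had some, and 0 had none. In 9 genes the probe sets differed in the sign of TCQA minus control.

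**Figure D4:**
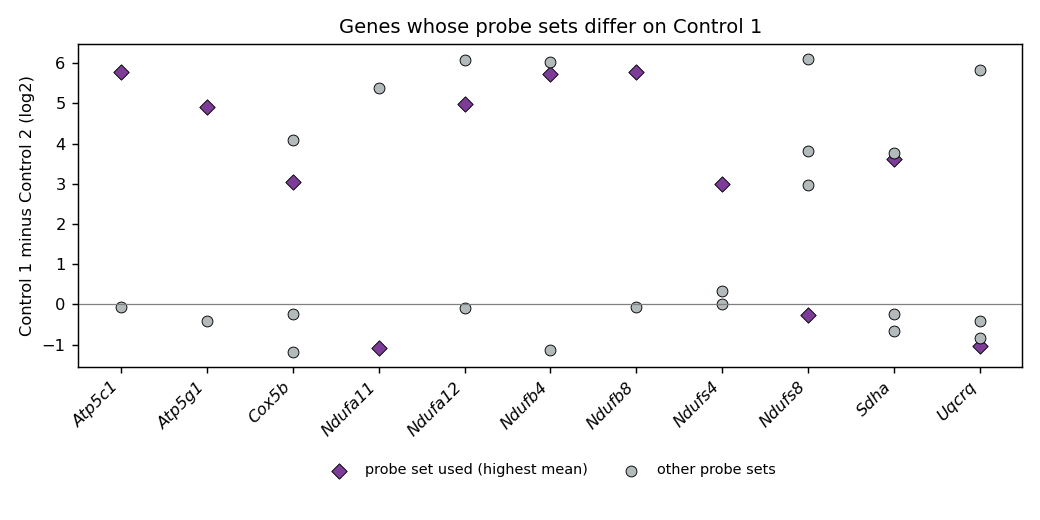
Control 1 minus Control 2 on the log2 scale for each probe set of the 11 genes in which some but not all probe sets were highest on Control 1; diamonds are the probe sets used and circles the others. Each gene has at least 1 probe set near or below 0 and at least 1 well above it.

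The exceptions of complexes I and III were not exceptions on every probe set. Ndufa11 was at 7.05 on Control 1 and 1.65, 1.93 and 2.01 on the others by its other probe set, with a difference of -2.38 in place of 0.59. The other probe sets of Ndufs8 reached 7.76, 5.69 and 5.37 on Control 1, all above the other arrays. Uqcrq was at 7.34, 1.51, 1.50 and 1.69 by one of its other probe sets, with a difference of -2.82. For these genes the probe set of the highest mean was therefore not the one that separated the arrays. Which probe set reports the mature transcript was not tested.

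A further probe set of Uqcrq, looked at after its values were seen, was the 1 of the 136 at 2-fold with an unadjusted limma p of at most 0.05. Over all probe sets, 0.122% passed this rule as lower and 0.135% as higher. The signals of this Uqcrq probe set were 2.44 and 2.84 on the controls and 3.61 and 4.19 on the TCQA arrays, so the groups did not overlap. The difference was 1.26 (SE 0.40), with an unadjusted p of 0.0281 and an adjusted p of 0.923 in limma. The 4 probe sets of Cox5b also disagreed: 2 were highest on Control 1 and 2 were lowest there, with differences from -2.74 to 1.11.

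Other mitochondrial genes were compared through lists of known members, and none of their members passed an adjusted p of 0.05. Among these mitochondrial lists, the carriers that serve the chain stood closest to it. Of the 10 named genes for cytochrome c, nucleotide exchange, porins and mitochondrial creatine kinase, 9 had a negative difference. Their median was -2.55, and 4.64 between the controls. The keratinocyte markers described below, which are not mitochondrial, had medians of -2.48 and 4.73. Without Control 1 the median of these carriers was 0.027, with 4 of the 10 negative. Slc25a4, the adenine nucleotide translocator of heart and muscle, was at 10.56, 2.62, 2.65 and 3.01, with a difference of -3.76 (SE 2.67), or 0.21 without Control 1. Ckmt2, the mitochondrial creatine kinase of striated muscle, was at 7.86, 1.61, 1.61 and 1.71, with a difference of -3.08 (SE 2.11), or 0.053 without Control 1. Control 1 alone was high in both. Of the citric acid cycle and pyruvate dehydrogenase genes, 14 of 15 had a negative difference, with a median of -2.14 and of 4.17 between the controls, and without Control 1 the median was 0.10, with 5 of the 15 negative. The largest were Mdh2, malate dehydrogenase, at 9.57, 2.85, 3.32 and 3.33 (difference -2.89, SE 2.26), and Idh3g, an isocitrate dehydrogenase subunit, at 7.75, 1.96, 2.24 and 1.70 (difference -2.89, SE 1.97). Without Control 1 these differences were 0.47 and 0.0072.

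Genes that build or regulate the chain differed less between the controls. The 73 mitochondrial ribosomal proteins had a median of 1.64 between the controls and of -0.77 between the groups, with 59 negative, and without Control 1 the median was 0.042, with 32 negative. Mrps21 and Mrpl30 had the largest differences, -2.31 (SE 1.73) and -2.29 (SE 1.80), or 0.22 and 0.36 without Control 1. The 43 named assembly factors had medians of 0.89 and -0.51, with 35 negative, and a median of 0.038 without Control 1, with 19 negative. The largest of these were Uqcc2 (complex III) at -2.32 (SE 1.60) and Cox14 (complex IV) at -2.04 (SE 1.39), or 0.034 and -0.011 without Control 1. For 13 regulators of mitochondrial biogenesis the medians were 1.09 and -0.58, with 10 negative, and the median was -0.044 without Control 1, with 8 negative. The largest were Polg, the mitochondrial DNA polymerase, at -1.48 (SE 0.68) and Polrmt, the mitochondrial RNA polymerase, at -1.34 (SE 0.76), or -0.71 and -0.36 without Control 1. Nrf1 itself was at 2.97 on Control 1 and 3.49, 3.56 and 3.52 on the others. The uncoupling proteins Ucp1 and Ucp3 had positive differences of 0.65 (SE 0.40) and 0.75 (SE 0.36), or 0.28 and 0.50 without Control 1. In each, both TCQA arrays lay above both controls, as they did in 16% of all genes.

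**Figure D5:**
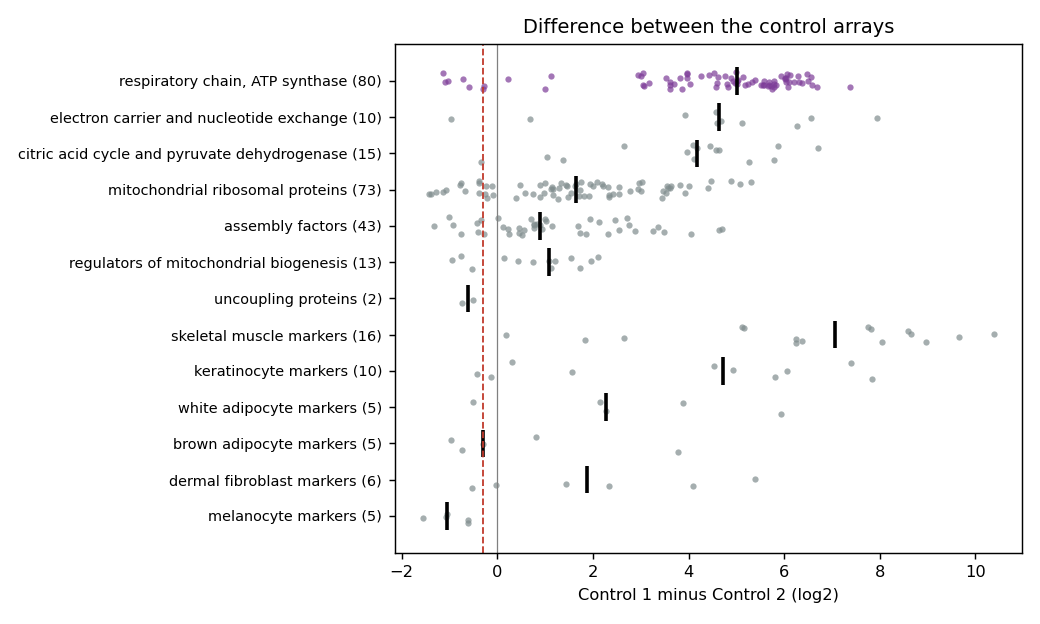
Control 1 minus Control 2 on the log2 scale for each gene of the respiratory chain, of the other mitochondrial lists and of cell type markers; black bars are list medians, with the number of genes in parentheses, and the red dashed line is the median over all genes. The respiratory chain has its median at 5.01, between the skeletal muscle markers at 7.06 and the assembly factors at 0.89.

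Cell type markers also differed between Control 1 and the other arrays. The 16 skeletal muscle markers had a median log2 signal of 9.72 on Control 1 and of 2.62, 2.60 and 3.16 on the others, and 15 of the 16 were highest on Control 1. The 10 named keratinocyte markers had medians of 8.08 on Control 1 and 2.40, 2.18 and 2.47 on the others, with 8 of the 10 highest on Control 1. The cornified-layer genes Flg and Lor were at 1.21 to 1.94 on all arrays, so defining markers of the labelled skin were near the floor. The basal keratin Krt5 was at 9.83 on Control 1 and 4.52 to 5.02 on the others. Krt14 was at 8.67 against 2.37 to 2.86, and Krt15 at 9.46 against 1.63 to 1.86. Krt10 was at 7.99 against 1.93 to 2.23, and Krt1 at 8.16 against 3.43 to 3.64. The medians over all probe sets on Control 2, TCQA 1 and TCQA 2 were 2.55, 2.54 and 2.49. Of the 5 named white adipocyte markers, 4 were highest on Control 1, and the list medians were 5.43, 2.94, 3.07 and 3.19. Fabp4 was at 8.48 on Control 1 and 2.55 to 3.29 on the others, and Lpl at 8.31 against 3.63 to 4.43. Lep went the other way, lowest on Control 1 at 1.69 against 2.20 to 2.72. Of the 6 dermal fibroblast markers, 4 were highest on Control 1, and the medians were 4.34, 2.46, 2.49 and 2.43. Among them, Col3a1 was at 8.87 on Control 1 and 2.99 to 3.47 on the others, and Dcn at 8.64 against 4.10 to 4.55. Col1a2 was instead lowest on Control 1, at 1.22 against 1.74 to 2.23, and Pdgfra was at 1.55 against 1.46 to 2.05. The 5 named brown adipocyte markers were divided, with 2 of the 5 highest on Control 1 and medians of 3.57, 3.04, 2.90 and 2.62. Of these, Cpt1b was at 6.37 on Control 1 and 2.39 to 2.63 elsewhere, and Cidea at 3.86 against 2.22 to 3.04, while Ucp1, the defining gene of brown fat, was lowest on Control 1, at 1.74. Control 1 was the lowest array in 9160 of all 17097 genes, so being lowest there was common. For 5 endothelial and blood cell markers, 4 were highest on Control 1 and the medians were 3.17, 2.42, 2.48 and 2.27, and 0 of the 5 melanocyte markers were highest there, with medians of 2.08, 2.75, 2.97 and 3.04. The part of these cell types in the respiratory chain result was not tested.

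The members also stood high among the genes that set Control 1 apart. Of the 269 genes at a log2 signal of 8 or more on Control 1, 34 were respiratory chain genes, or 12.6%. On any other array 0 of the 80 reached that level. Few genes of any kind did so: 6, 10 and 7 of all 17097 genes on Control 2, TCQA 1 and TCQA 2. The members made up 0.468% of all genes. They held 10 of the 100 genes with the largest difference between the controls and 52 of the 500. On Control 2, TCQA 1 and TCQA 2, 11, 13 and 15 of the 80 genes lay above the array's 90th percentile, against 72 on Control 1. The 9 that did so on all 3 of these arrays were Ndufs1, Ndufv3, Sdha, Uqcrc1, Cox5b, Cox8a, Cox8c, Atp5d and Atp5mpl.

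Among the other 3 arrays the members varied less. The range over Control 2, TCQA 1 and TCQA 2 had a median of 0.47 and a maximum of 1.56 on the log2 scale. The highest was Atp5pb, subunit b of the stalk, at 2.34 on Control 2 and at 1.71 and 3.27 on the TCQA arrays. Between the TCQA arrays the median difference was 0.10, with TCQA 2 higher in 45 of the 80 genes. The TCQA mean minus Control 2 was most positive in Ndufc1, an accessory complex I subunit, at 0.83 and most negative in Cox6c at -0.58.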

How the data were processed

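Total RNA of 4 skin samples was hybridized to strips of Affymetrix mouse PM arrays, 2 with vehicle and 2 with TCQA. The submitters' processing notes list RMA, Affymetrix Expression Console and Transcriptome Analysis Console with no version; for the last of these the methods give 4.0.1. The table the authors deposited gives a log2 value for every probe set of each array. Whether the arrays were normalized together is not given in the sources used here, and no depth applies to array signals, so the number of arrays limits the precision.

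Gene names came from the platform annotation. From 45141 probe sets the 104 controls were left out, and of the other 45037, 28898 name 1 gene, 551 name several and 15588 are unnamed here. All 80 members had a RefSeq identifier with the same symbol. The test was limma's moderated two-sided test (limma 3.58.1 under R 4.3.3, with lmFit, then eBayes), adjusted by Benjamini-Hochberg over all 45037 probe sets and with 2 residual degrees of freedom, without a filter or a further normalization. The limma step was tested on simulated data in which no array stood apart as Control 1 does. That test therefore does not show how the fit behaves with Control 1 in it. With 2 arrays a group, the smallest p of an exact permutation test is 0.333. Differences are TCQA minus control on the log2 scale unless another pair is named.

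Members, lists, tests and the rule for named genes were chosen with earlier results of these data known, and subunit roles were assigned after the values were seen. Named genes are, per complex, those with the most negative and most positive difference and the largest difference between the controls, all isoforms, members with both TCQA arrays above both controls, and the 2 largest of each other list. Others are named after their values were seen. Because the probe set of the highest mean was used, and Control 1 counts in that mean, probe sets bright on Control 1 are favoured. Alternatives were quantile normalization of the deposited values, centring each array on its median, leaving out dim probe sets, limma's trend and robust options, an unmoderated test in place of the study's analysis of variance, a replicate block, leaving out each array, and 3 other rules for a gene's probe set. Same-numbered arrays had deviations that correlated at -0.124 over all probe sets, and the labels give no pairing of mice.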

Additional observations from a re-analysis of the deposited data

How the results depend on the processing

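Leaving out 1 array at a time changed most, through the control arrays. The number of the 80 genes past an adjusted p of 0.05 in limma ran from 0 to 71, the latter without Control 2, and was 0 without either TCQA array (a group left with 1 array takes its spread from the other group). The number with a negative difference ran from 36 (without Control 1) to 73, the number with both TCQA arrays below the controls from 21 to 73, and the number above from 3 to 26. Over all genes the shares in these settings ran from 22% to 35.7% below and from 26.3% to 54.7% above. The median difference ran from -4.93 to 0.047 over the 80 genes, from -4.99 to 0.15 in complex I, from -4.67 to -0.10 in complex III, from -4.19 to 0.13 in complex IV, from -5.74 to -0.073 in complex V and from -5.81 to 0.13 in the muscle isoforms. Single differences that changed sign without an array ran from -7.12 to 0.27 in Atp5j2, from -6.21 to 0.053 in Ckmt2, from -4.84 to 0.18 in Cox4i1, from -2.89 to 0.73 in Cox6a1, from -5.81 to 0.13 in Cox7a1, from -0.078 to 0.51 in Cox7b2, from -0.78 to 0.34 in Cox8a, from -6.36 to 0.14 in Cox8b, from -5.79 to 0.0072 in Idh3g, from -6.25 to 0.47 in Mdh2, from -4.93 to 0.36 in Mrpl30, from -4.85 to 0.22 in Mrps21, from -5.89 to 0.13 in Ndufa4, from -3.38 to 0.24 in Sdha, from -6.06 to 0.062 in Sdhc, from -7.73 to 0.21 in Slc25a4, from -4.67 to 0.034 in Uqcc2 and from -0.0045 to 1.03 in Uqcrq.

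With a further quantile normalization the member median was -1.43, and Atp5mpl and Cox8a changed sign to 0.73 and 0.71. With dim probe sets left out, 77 genes remained and 0 had both TCQA arrays above the controls, against 12.8% of all genes. When all probe sets of a gene were averaged, Ndufa11 and Uqcrq were at -0.90 and -0.27. With plain-suffix probe sets only, 62 genes remained and Sdha was at 0.63. Of these genes, 4 had both TCQA arrays above the controls, against 17% of all genes. With the probe set brightest on the other 3 arrays, Mrpl30 was at 0.40. The cause of these changes was not tested. Under every alternative other than leaving out Control 2, 0 members passed an adjusted p of 0.05. The replicate block also gave 0 members past that threshold, and a crossed pairing, chosen after seeing the data, gave 0. These were the only paired fits, and the labels give no pairing.

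With 2 arrays a group and 1 array apart from the rest, the data set no tight limit on an effect of TCQA on the respiratory chain. The difference of the members' median without Control 1, 0.047, rests on Control 2 as the lone control array. On Control 2 and the TCQA arrays the members' medians, 2.83, 2.98 and 3.04, lay close to those of all genes, 2.88, 2.87 and 2.77.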
